A study of Mus musculus with 45 samples.

Results

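The genes described here are the cornified layer and epidermal barrier families of mouse forelimb bud cultures. They are the protein_coding rows of the deposited tables named Sprr, Lce, Klk, Serpinb, Dsc, Dsg or Stfa with a number, together with BC100530, Csta1, Casp14, Dmkn, Calm4, Spink5, Lor, Ivl, Flg, Ly6d, Sdr16c6, Pla2g2f and Them5. The rule reads names and no measured value, but the names were chosen with earlier results of these data known. It found 90 genes of 34994 in the joined tables, of which 18702 are protein_coding. A further 4 rows had a matching name but not that biotype and were left out. The 90 members are 11 Sprr, 14 Lce, 18 Klk and 9 Dsc or Dsg genes, 11 Serpinb genes on chromosome 1 and 10 on chromosome 13, 6 stefins, 8 single genes, and Lor, Ivl and Flg. Of these, 15 had fewer than 3 reads in every library, among them 7 of the 14 Lce genes.

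Forelimb buds of gestational day 13 CD1 mouse embryos were cultured with the vehicle dimethyl sulfoxide (DMSO, the control), 10 µM bisphenol S (BPS, a substitute for bisphenol A in plastics) or 50 µM BPS. RNA was taken after 3, 24 or 48 h, with 5 libraries in each of the 9 groups and 45 in all. Limbs of male and female embryos shared the bottles, all groups were cultured in the same BGJb-based medium, and the RNA comes from whole limbs, so fewer cells of a type and less RNA per cell cannot be told apart. Nothing in the labels says that libraries of a group came from separate litters or bottles, so p-values measure the spread between libraries. The strain field reads CD1 for 40 libraries, and CD2, CD3, CD4, CD5 or CD6, 1 library each, for the 50 µM group at 48 h. The series' design text names CD1 only.

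The outer epidermis is built by keratinocytes that leave the basal layer, flatten and die. Involucrin, loricrin and the small proline-rich (Sprr) and late cornified envelope (Lce) proteins are cross-linked under the membrane into the cornified envelope, while filaggrin bundles keratin. Desmosomal cadherins (Dsc and Dsg) hold the cells together, kallikrein peptidases (Klk) cut those cadherins at the surface, and inhibitors such as Spink5, the serpins and the cystatin-like stefins restrain peptidases. In mice this programme completes in late gestation, after the stage at which these cultures began.

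The families lie in clusters in the mm10 genome. Sprr, Lce, Lor, Ivl and Flg fill chromosome 3 from 92080271 to 93293686, which is 1.21 Mb, and the Klk genes lie on chromosome 7 from 43690418 to 44229618. The Serpinb clusters are on chromosome 1 from 106861173 to 107610484 and on chromosome 13 from 32842092 to 34002794. Dsc and Dsg genes lie on chromosome 18 from 19960930 to 20604521, and the stefins on chromosome 16 from 36119946 to 36455392. Neighbouring copies resemble each other, yet no member had over 50% of its 75-base transcript windows in common with another gene. The highest shares among members named below were 39.7% for Dsg1b, 29.2% for Dsg1a, 25.6% for BC100530, 22% for Serpinb6a and 20.3% for Klk8. Reads from such windows match more than 1 gene, and how far this affected the counts was not measured. Klk8 to Klk14 also overlap 2310002F09Rik on the other strand, and whether counting used strand is not given in the sources used here.

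Libraries held 15.2 to 23.1 M counted reads, with a median of 18.2 M. Levels below are CPM, a gene's reads scaled to a common library size with TMM factors. A gene entered a comparison when it reached about 10 reads in a library of median depth, 0.549 CPM, in as many libraries as a group holds. Changes are log2 changes ± SE from edgeR's quasi-likelihood test, fitted across all genes with 5 libraries a group, and a gene was called when its Benjamini-Hochberg adjusted p over all genes tested was below 0.05. Epidermal cells were present throughout. A list of 7 basal epidermal genes (Krt5, Krt14 and others) summed to 435 to 730 CPM in the control libraries at 3 h and 465 to 669 CPM at 48 h. A list of 6 suprabasal genes (Krt1, Krt10 and others) went from 17.7 to 23.4 CPM at 3 h to 303 to 529 CPM at 48 h. Cartilage genes, by contrast, summed to 10200 to 16300 CPM at 48 h, so the barrier families are a small share of a mostly skeletal tissue.

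In control cultures the families rose mainly on the second day. From 24 to 48 h, 23 of 32 tested members were called and all 23 rose, against 16% of all genes tested called, 9.44% higher and 6.55% lower. In 18 of the 32, every 48 h library lay above every 24 h library, as for 7.43% of all genes tested, and in none did every library lie below, as for 5.42% of all genes. The rises spanned log2 changes from 0.41 (Serpinb6a) to 6.29 (Calm4), and adjusted p ran from 6.87e-09 (Stfa3) to 0.0319 (Klk10). Meeting the filter mainly through 48 h levels favours a rise, and 16 of the 32 were below the filter level in some 24 h library. Of the other 16, which were at the filter level in all 5 libraries at 24 h, 9 were called and all 9 rose. No member was called lower.

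**Figure D1:**
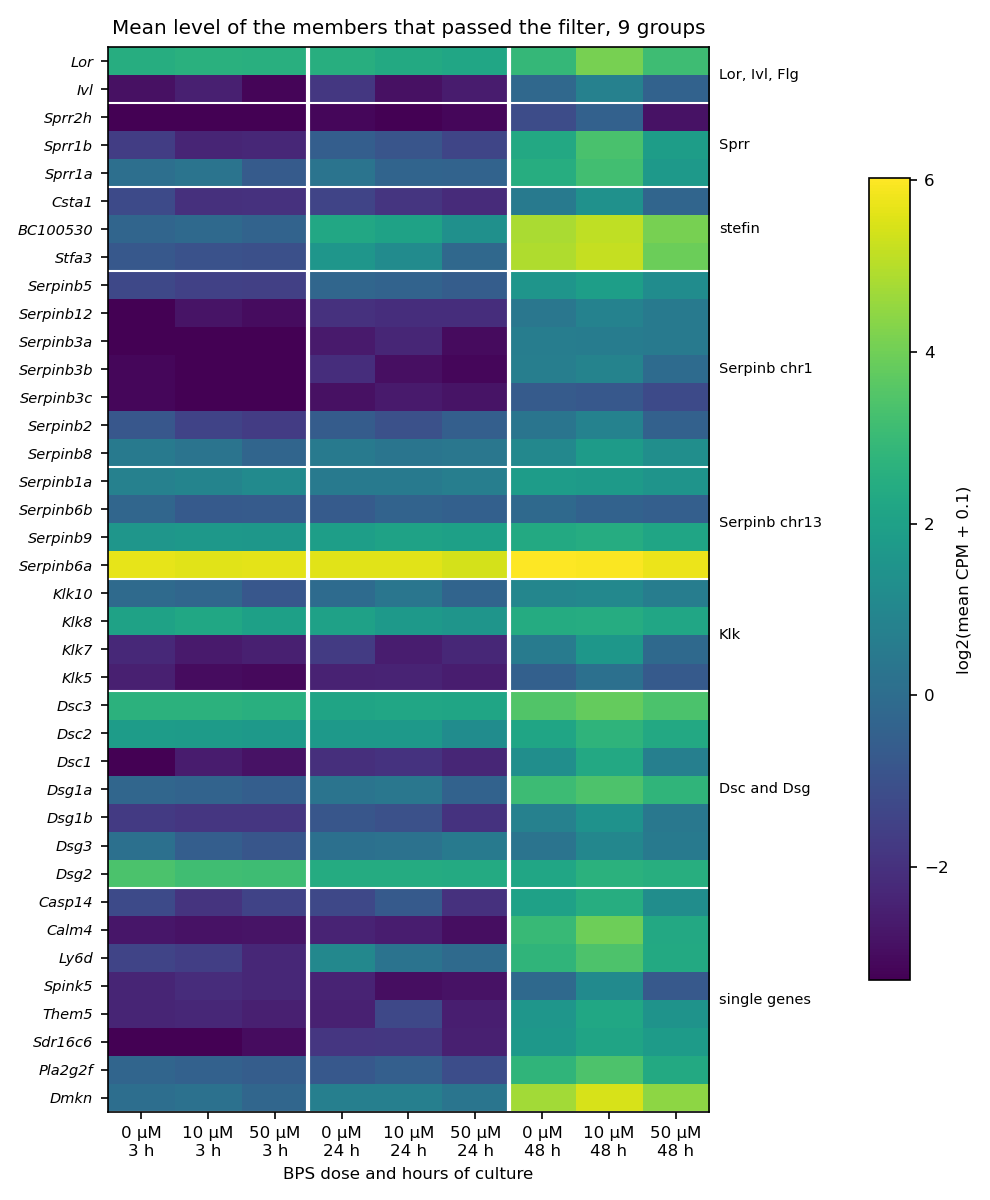
Mean level of the 38 members that passed the filter in some comparison, as log2(mean CPM + 0.1), with members in rows grouped by family and the 9 groups of 5 libraries in columns by dose and hours. Most rows are dark at 3 and 24 h and bright at 48 h, while Serpinb6a, Lor, Dsc3, Dsc2, Dsg2, Klk8 and Serpinb9 are bright throughout.

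Of the 8 single genes, 7 were tested and all 7 rose, with a median log2 change of 4.02. Calm4, a calmodulin-like calcium-binding protein of the epidermis, stood at 0.114, 0.0633, 0.160, 0.122 and 0 CPM in the 5 control libraries at 24 h, and at 4.66, 7.95, 5.33, 14.4 and 6.68 CPM at 48 h. Every 48 h library lay far above every 24 h library, for a log2 change of 6.29 ± 0.47. Dmkn, which encodes the secreted epidermal protein dermokine, went from 2.11, 1.71, 1.81, 0.429 and 1.59 CPM to 13.1, 30.8, 23.7, 41.0 and 22.4 CPM. Its groups did not overlap either, and replicate 1 was the lowest at 48 h; the log2 change was 4.08 ± 0.37. Enzymes of lipid metabolism rose with them. Them5, a thioesterase, rose by 5.05 ± 0.46, Sdr16c6, a short-chain dehydrogenase, by 4.02 ± 0.43, and Pla2g2f, a secreted phospholipase, by 3.73 ± 0.40. Casp14, the caspase tied to cornification and filaggrin processing, rose by 3.68 ± 0.35 and Ly6d, a GPI-anchored surface protein, by 1.81 ± 0.25. Spink5, the inhibitor of the kallikreins, was not tested, with a mean of 0.0911 CPM at 24 h and 0.826 CPM at 48 h.

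The envelope precursors did not move as a unit. Loricrin, which makes up much of the mature envelope, was already expressed at 3 h. Lor measured 5.36, 6.98, 5.77, 4.53 and 5.26 CPM at 3 h, 6.38, 4.75, 8.75, 5.82 and 3.17 CPM at 24 h, and 5.91, 7.52, 10.4, 6.68 and 6.04 CPM at 48 h in control. These groups overlapped, and the second-day log2 change of 0.33 ± 0.22 was not called (adjusted p = 0.359). Sprr1a and Sprr1b, the small proline-rich proteins made early in envelope assembly, behaved otherwise. Sprr1a went from 1.03, 0.823, 2.67, 0.429 and 0.547 CPM at 24 h to 1.87, 3.45, 4.37, 11.2 and 6.95 CPM at 48 h. Replicate 1 at 48 h stayed below replicate 3 at 24 h, so the groups overlapped; the log2 change was 2.30 ± 0.56 (adjusted p = 0.0168), and without the filter on low counts its adjusted p was 0.0679. Sprr1b rose by 2.98 ± 0.66. With replicate numbers as blocks in the fit, neither the Sprr1a nor the Sprr1b rise was called. Sprr2h had no read at 3 h and a mean of 0.348 CPM at 48 h, at least 10.6-fold higher with 3 reads over the group taken as the floor.

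The other precursors were near the detection limit. The 14 Lce genes together had 92 reads over all 45 libraries, and their highest value in any library was 0.365 CPM, for Lce1f in control replicate 4 at 48 h. Lce1f, which led its family in the 48 h controls, was at 0 in 3 of those 5 libraries and at 0.0508 CPM in the other with reads. No Lce gene reached the filter. Ivl (involucrin) measured 0.170, 0.142, 1.27, 1.15 and 1.23 CPM at 48 h, with 2 libraries low and 3 higher, and was not tested in the control comparison. For Flg (filaggrin) the 48 h controls gave 13 reads in all. Per kilobase of the deposited gene length, the means at 48 h in control were 6.90 for Sprr1a, 5.85 for Sprr1b, 4.10 for Lor, 0.413 for Ivl, 0.114 for Lce1f and 0.00781 CPM per kb for Flg.

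**Figure D2:**
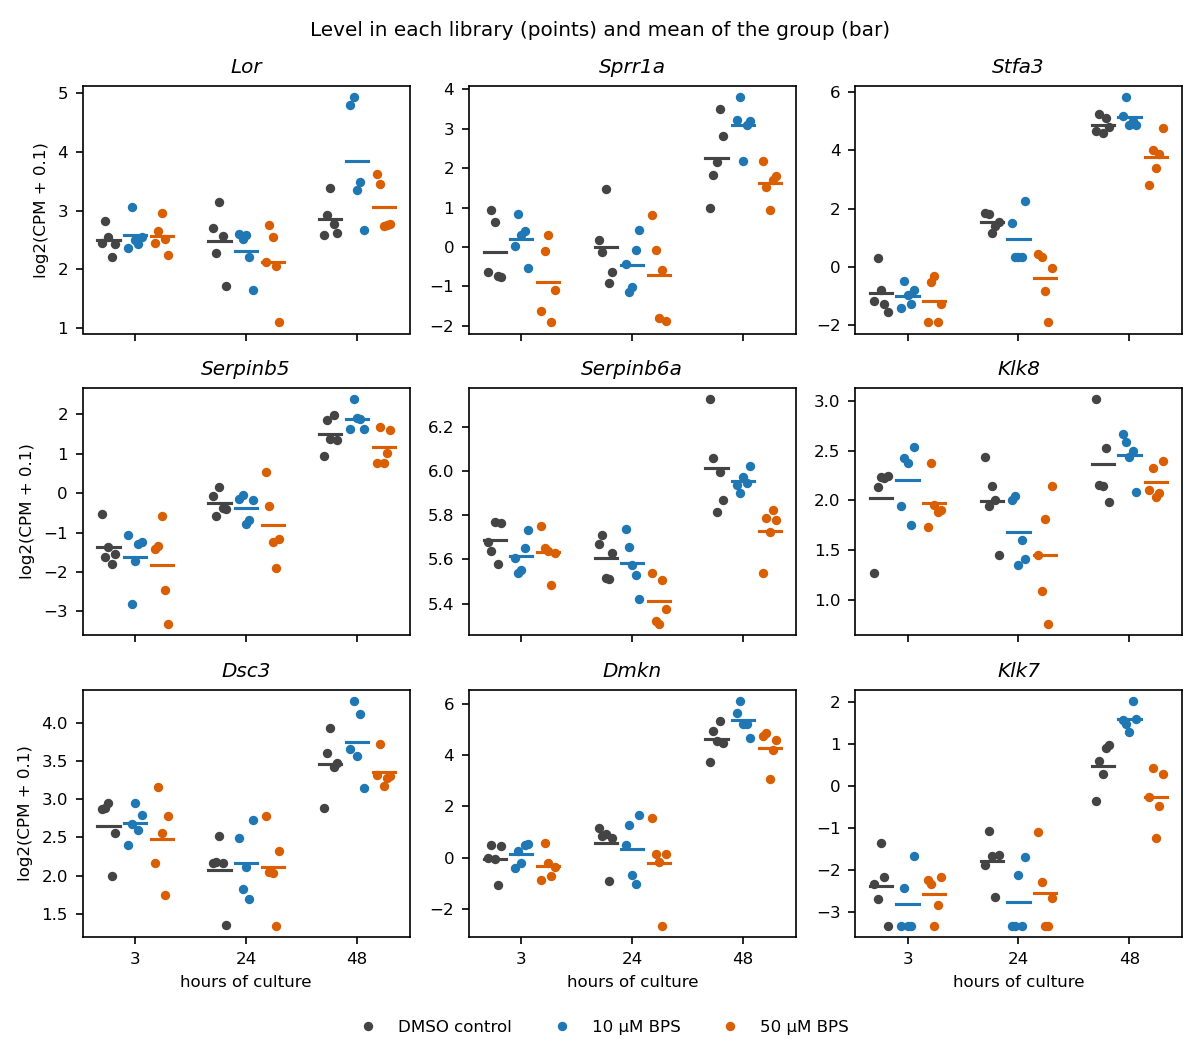
Level of 9 members in each of the 45 libraries, as log2(CPM + 0.1) against hours of culture, with 1 point a library, a bar at the mean of the 5 log values, and colours for control, 10 µM and 50 µM BPS. Stfa3, Serpinb5, Dmkn and Klk7 climb by 48 h at every dose, whereas Lor and Klk8 shift little in control.

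Sprr1a and Lor lie in the same cluster, were the 2 precursors with the highest mean CPM in the 48 h controls, and differed in their course, so the 250 bases before their start sites are printed beside those of Calm4, which had the widest rise and was chosen after its values were seen. The sequences are from RefSeq on GRCm38.p6, the assembly of mm10, on the gene's strand, 5′ to 3′. Capitals mark matches to AP-1 (TGANTCA), the KLF core (CACCC, or GGGTG on the other strand) and TATAAA. In Sprr1a, 1 KLF match overlaps 1 AP-1 match and both print as a single run. The promoters are those of Lor at chr3:92083143-92083392 on the minus strand, Sprr1a at chr3:92485882-92486131 on the minus strand, and Calm4 at chr13:3837507-3837756 on the plus strand.
Lor: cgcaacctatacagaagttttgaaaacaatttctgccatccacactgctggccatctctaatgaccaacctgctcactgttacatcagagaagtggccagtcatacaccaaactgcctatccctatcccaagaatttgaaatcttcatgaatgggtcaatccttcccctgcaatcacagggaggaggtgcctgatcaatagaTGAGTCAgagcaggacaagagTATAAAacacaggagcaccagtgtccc
Sprr1a: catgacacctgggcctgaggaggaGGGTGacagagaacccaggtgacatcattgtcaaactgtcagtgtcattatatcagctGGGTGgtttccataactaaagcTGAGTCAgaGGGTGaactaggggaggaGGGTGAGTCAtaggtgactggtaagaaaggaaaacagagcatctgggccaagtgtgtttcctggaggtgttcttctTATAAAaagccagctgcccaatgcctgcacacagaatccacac
Calm4: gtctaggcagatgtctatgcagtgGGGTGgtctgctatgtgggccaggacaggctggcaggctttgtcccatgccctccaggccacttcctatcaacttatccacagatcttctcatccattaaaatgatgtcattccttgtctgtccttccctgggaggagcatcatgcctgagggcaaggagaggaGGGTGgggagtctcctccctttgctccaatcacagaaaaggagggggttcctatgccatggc

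The AP-1 match begins 48 bases before the start in Lor, and 146 and 116 bases before it in Sprr1a, while Calm4 has none in this window. Over the 74 members with a promoter in the RefSeq table, 23% held TGANTCA on either strand, against 6.87% of all 27025 promoters of the same length. No Dsc or Dsg gene was among the 74. The matches were unevenly spread. They occurred in all 3 of Lor, Ivl and Flg, in 7 of 10 Sprr promoters and in 6 of 10 of the chromosome 1 serpins. Only 1 of 6 single-gene promoters held one, and none of 13 Lce, 18 Klk, 9 chromosome 13 serpin or 5 stefin promoters did. TATAAA was in 31.1% of member promoters and 13% of all. It was in 8 of 10 Sprr promoters, in Lor, Ivl and Flg, and in 7 of 10 of the chromosome 1 serpins. Elsewhere it was in 3 of 13 Lce, 1 of 18 Klk, 1 of 9 chromosome 13 serpin, 0 of 6 single-gene and 0 of 5 stefin promoters. CACCC was in 63.5% of member promoters and 51.3% of all, and AACNGGTT, the grainyhead core, in 0 of 74 and 1.71% of all. These are letter matches and show no binding.

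Stefins, small inhibitors of cysteine cathepsins, included the most abundant members per kilobase. Stfa3 measured 0.344, 1.13, 0.481, 0.310 and 0.245 CPM in control at 3 h, 3.53, 3.42, 2.13, 2.57 and 2.79 CPM at 24 h, and 25.3, 37.7, 24.0, 34.8 and 28.2 CPM at 48 h. The 3 times did not overlap, and the second-day log2 change was 3.37 ± 0.16. BC100530, a stefin gene of the same cluster, rose by 2.60 ± 0.16 to a mean of 28.8 ± 5.7 CPM (SD, n = 5). Csta1, the mouse counterpart of human cystatin A, rose by 2.22 ± 0.45 to 1.36 ± 0.42 CPM. Per kilobase, Stfa3 reached 72.8 and BC100530 36.4 CPM at 48 h, above every other member, the next being Serpinb6a at 12.0 and Dmkn at 11.9. Stfa1, Stfa2 and Stfa2l1 stayed below the filter, with means of 0.0196, 0.293 and 0.115 CPM at 48 h. Stefins of this cluster are also made by neutrophils. A list of 9 neutrophil genes summed to 2.89 to 3.58 CPM in the 48 h controls, with 3 of the 9 at 0 reads. Which cells the stefin reads came from was not tested.

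The serpins are described by cluster. On chromosome 1, Serpinb5 (maspin), the leading member at 48 h, went from 0.854, 0.570, 1.01, 0.674 and 0.656 CPM at 24 h to 1.82, 3.55, 2.49, 3.89 and 2.46 CPM at 48 h. All 5 later libraries lay above all 5 earlier ones, with a log2 change of 1.89 ± 0.27. Serpinb3a rose by 4.51 ± 0.50 and Serpinb3b by 3.49 ± 0.65; both are homologues of the human squamous cell carcinoma antigens. Serpinb3a and Serpinb12 had no read in any control library at 3 h and were at least 44.8-fold and 36.5-fold higher at 48 h, taking 3 reads over the group as the floor. Serpinb8 (0.55 ± 0.28) and Serpinb2 (0.97 ± 0.52) did not pass. On chromosome 13, 2 of 4 tested serpins rose. Serpinb6a had the most reads of any member, at 50.7, 52.2, 45.7, 45.6 and 49.4 CPM at 24 h and 80.1, 66.5, 56.2, 63.6 and 58.3 CPM at 48 h. Its groups did not overlap, though the log2 change was only 0.41 ± 0.09. Serpinb1a, an inhibitor of neutrophil serine proteases, rose by 1.34 ± 0.22. Serpinb9 (0.43 ± 0.16) and Serpinb6b (0.54 ± 0.34) did not pass.

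Among desmosomal cadherins, 4 of 7 tested members rose from 24 to 48 h. Dsc3, a basal and spinous desmocollin and the leading member at 48 h, went from 4.39, 4.43, 5.65, 4.41 and 2.46 CPM at 24 h to 7.27, 12.0, 15.1, 10.6 and 11.0 CPM at 48 h. The groups were apart, with a log2 change of 1.39 ± 0.20. Dsc1 and Dsg1a, cadherins of the upper layers, rose by 4.04 ± 0.47 and 2.89 ± 0.23, and Dsg1b by 1.79 ± 0.40. Dsg3 (0.16 ± 0.30), Dsc2 (0.46 ± 0.21) and Dsg2 (-0.23 ± 0.18), which is also found in simple epithelia and heart, were not called. Dsc1 had no read at 3 h and was at least 72.7-fold higher at 48 h, on the same floor. Dsg4, a cadherin of hair follicles, and Dsg1c were not tested.

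Of the kallikreins, 3 of 18 could be tested. Klk7, which cuts corneodesmosomes at the skin surface, went from 0.171, 0.380, 0.213, 0.0612 and 0.219 CPM at 24 h to 0.681, 1.42, 1.12, 1.76 and 1.87 CPM at 48 h. The groups were apart and the log2 change was 2.68 ± 0.41. Klk10 rose by 1.08 ± 0.33. That call was lost when any 1 of control replicates 2 to 5 at 24 h or 1, 2 and 4 at 48 h was left out, with log2 changes of 0.93 to 1.07 and adjusted p of 0.0554 to 0.0922. Klk8 (neuropsin), the leading kallikrein, measured 5.30, 3.73, 4.32, 3.92 and 2.62 CPM at 24 h and 8.01, 4.35, 4.32, 5.65 and 3.85 CPM at 48 h. These groups overlapped, and the log2 change of 0.39 ± 0.22 did not pass.

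The first day in culture looked different. From 3 to 24 h in control, 6 of 20 tested members were called, 4 higher and 2 lower, while 40.2% of all genes tested were called, 20% higher and 20.1% lower. BC100530 rose by 2.71 ± 0.27, Ly6d by 2.69 ± 0.39, Stfa3 by 2.48 ± 0.32 and Serpinb5 by 1.23 ± 0.38. All 4 were below the filter level in some library at 3 h. Dsg2 fell by 0.94 on the log2 scale (SE 0.13) and Dsc3 by 0.60 (SE 0.20). Dsg2 measured 10.3, 11.5, 9.52, 8.31 and 11.1 CPM at 3 h and 5.70, 5.70, 5.71, 4.10 and 5.47 CPM at 24 h, with no overlap. The Dsc3 call was lost without control replicate 1, 2 or 3 at 3 h, with log2 changes of -0.55 to -0.52 and adjusted p of 0.0558 to 0.0604, and also in a fit of all 45 libraries (-0.60, adjusted p = 0.0648). Basal epidermal markers fell in the same interval, with 4 of 7 called lower and a median log2 change of -0.60, and 4 of 4 tested suprabasal markers rose. Their part in the members' changes was not tested.

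Over the whole 3 to 48 h span, 26 of 33 tested members were called, 25 higher and 1 lower, against 49.3% of all genes tested, 24.5% higher and 24.8% lower. Of the 10 already at the filter level in all 3 h libraries, 5 were called higher and 1 lower. The stefins rose furthest among members with reads at 3 h in every library, Stfa3 by 5.87 ± 0.26 and BC100530 by 5.33 ± 0.24. Other log2 rises were 6.98 ± 0.56 for Calm4, 4.93 ± 0.52 for Them5, 4.78 ± 0.36 for Dmkn, 4.52 ± 0.34 for Ly6d and 4.30 ± 0.62 for Sprr1b. Sdr16c6 had no read at 3 h and was at least 93.7-fold higher. Serpinb3b, also called, had 1 read at 3 h and 143 at 48 h, a ratio of 140 with an exact 95% interval of 24.6 to 5550 that covers counting error only. Dsc1, Serpinb3a and Serpinb12, whose lower bounds are given above, were called as well. The other called rises lay between 0.33 ± 0.08 for Serpinb6a and 3.55 ± 0.35 for Casp14, with Dsg1a at 3.45, Klk7 at 3.44, Pla2g2f at 3.20, Serpinb5 at 3.14, Dsg1b at 2.92, Sprr1a at 2.503, Csta1 at 2.09, Serpinb1a at 1.06, Dsc3 at 0.80 and Serpinb9 at 0.80. Dsg2 alone fell, by 1.16 on the log2 scale (SE 0.17), against the rest of its family.

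BPS-treated cultures also showed a second-day rise of these families. At 10 µM, 30 of 35 tested members were called from 24 to 48 h, all higher, with 24.1% of all genes tested called and 13.5% called higher. At 50 µM, 23 of 28 were called, all higher, with 28.5% and 14.5% for all genes. These comparisons share no library with each other or with control. Every 48 h library lay above every 24 h library in 30 of 35 members at 10 µM and 19 of 28 at 50 µM. The same held for 9.64% and 11.2% of all genes. Every 48 h library lay below in 0 members at either dose, and in 7.52% and 9.07% of all genes. Members at the filter level in every 24 h library numbered 14 at 10 µM, of which 10 were called higher, and 12 at 50 µM, of which 9 were called higher. Called at all 3 doses were 16 members, namely BC100530, Calm4, Casp14, Dmkn, Dsc3, Dsg1a, Ly6d, Pla2g2f, Sdr16c6, Serpinb1a, Serpinb5, Serpinb6a, Sprr1a, Sprr1b, Stfa3 and Them5, out of 32 called at any dose.

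**Figure D3:**
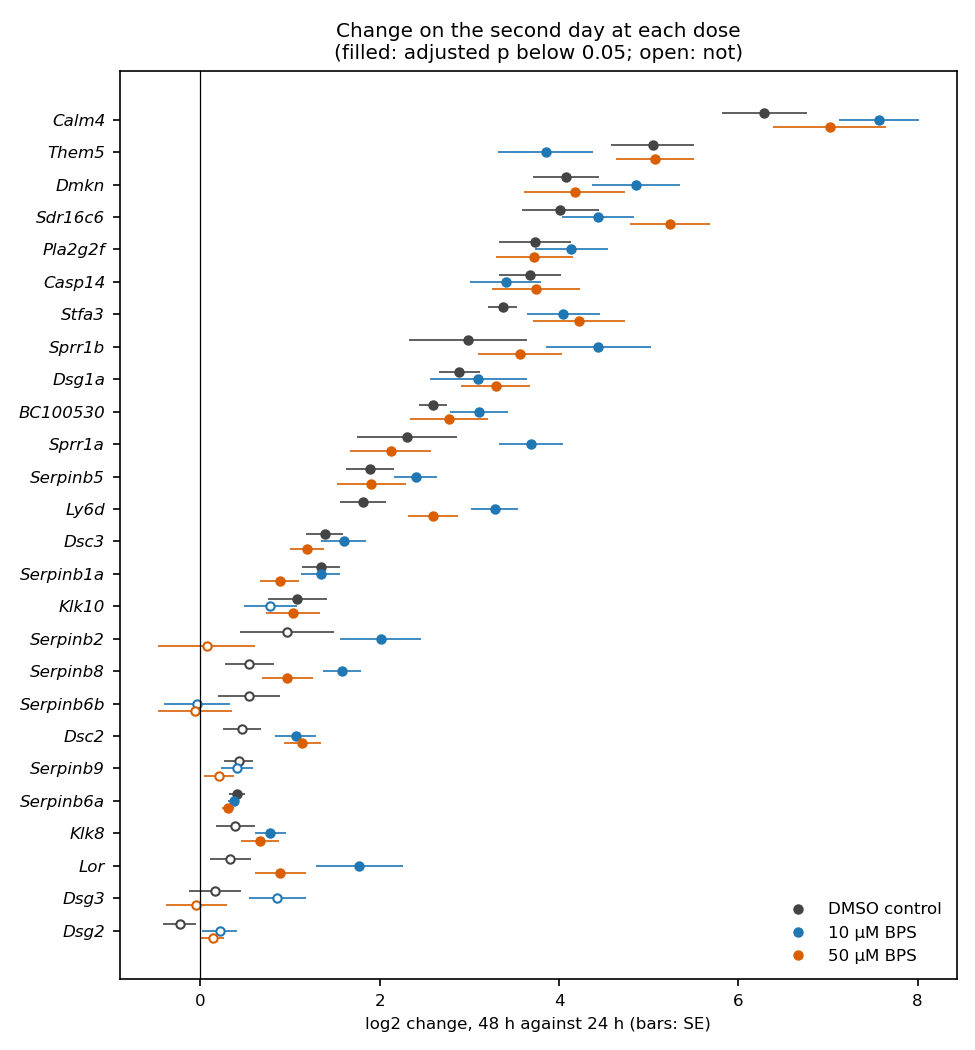
Log2 change from 24 to 48 h with its SE for the 26 members tested at all 3 doses, in colours for control, 10 µM and 50 µM BPS; filled points have adjusted p below 0.05. All 3 colours sit to the right of 0 for the 16 members called at every dose, from Serpinb6a near 0.4 to Calm4 above 6.

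The sizes were close for some members and spread for others. Calm4 rose by 7.57 ± 0.44 at 10 µM. At 50 µM it went from 3 reads to 449, a ratio of 159 with an exact interval of 54.1 to 774. The log2 rises of the others are given for 10 µM and then 50 µM. Them5 rose by 3.85 and 5.07, Sdr16c6 by 4.43 and 5.24, and Dmkn by 4.85 and 4.17. Casp14 rose by 3.40 and 3.75, Pla2g2f by 4.14 and 3.73, Ly6d by 3.28 and 2.59, Stfa3 by 4.05 and 4.22, and BC100530 by 3.11 and 2.77. For the precursors, Sprr1a rose by 3.69 ± 0.35 at 10 µM and 2.12 ± 0.45 at 50 µM, and Sprr1b by 4.44 and 3.56. Lor, which was not called in control, was called at 10 µM (1.77 ± 0.49, adjusted p = 0.0304) and at 50 µM (0.89 ± 0.29, adjusted p = 0.0392). The 50 µM call was lost without replicate 1 or 4 at 24 h or replicate 1 or 2 at 48 h (0.74 to 0.86, adjusted p 0.0701 to 0.0931). The serpins Serpinb5 (2.40 and 1.91), Serpinb12 (3.55 and 3.15), Serpinb1a (1.34 and 0.89), Serpinb8 (1.58 and 0.97) and Serpinb6a (0.37 and 0.31) were called at both BPS doses. Serpinb8 was not called without 50 µM replicate 2 at 48 h (0.79, adjusted p = 0.0574). Dsg1a (3.10 and 3.29), Dsc3 (1.60 and 1.19), Dsc2 (1.06 and 1.14) and Klk8 (0.78 and 0.67) were also called at both. Klk8 lost its 50 µM call without replicate 2 or 4 at 24 h or 2 or 5 at 48 h (0.52 to 0.64, adjusted p 0.0516 to 0.0655). The 10 µM calls of Lor, Klk8, Dsc2, Dsg1a and Serpinb2 were not followed in refits without 1 library, so their stability is not known.

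Several members were called or tested at 1 BPS dose only. At 10 µM, Klk7 rose by 5.19 ± 0.45, Csta1 by 3.91 ± 0.37, Dsc1 by 4.88 ± 0.52 and Dsg1b by 2.69 ± 0.45. Serpinb3b, Ivl and Spink5 were called from a base of 3 reads each at 24 h. Their ratios were 53.2 (exact interval 17.9 to 261), 51.5 (17.3 to 253) and 66.1 (22.3 to 323). Ivl, Spink5, Klk5 (3.42 ± 0.49) and Serpinb2 (2.01 ± 0.45) were called at 10 µM and at no other dose. Of these 4, Serpinb2 alone was tested at all 3 doses (0.97 ± 0.52 in control and 0.07 ± 0.54 at 50 µM). At 50 µM, Klk10 rose by 1.03 ± 0.30, and Serpinb3a was called with 2 reads at 24 h and 124 at 48 h, a ratio of 65.9 (exact interval 17.9 to 550.3). The difference in second-day change between a BPS dose and control was tested as an interaction over 20 libraries. No member passed, 0 of 37 for 10 µM and 0 of 34 for 50 µM, with 0% of all genes called in either. At an unadjusted p below 0.05 there were 7 members for 10 µM and 1 for 50 µM, and DESeq2 called 0 in both. Over all genes tested there were 352 of 17470 for 10 µM and 519 of 17481 for 50 µM. The smallest p for 10 µM were those of Ly6d (1.46 ± 0.41), Klk7 (2.51 ± 0.75), Serpinb8 (1.03 ± 0.34), Ivl (3.35 ± 1.20) and Csta1 (1.68 ± 0.66), with an adjusted p of 0.9999. For 50 µM they were those of Dsc2 (0.68 ± 0.30), Ly6d (0.78 ± 0.41), Dsg2 (0.38 ± 0.22), Sdr16c6 (1.23 ± 0.79) and Serpinb3b (2.22 ± 1.43), with an adjusted p of 0.9997. The values for Ivl and Serpinb3b rest on groups with 1 to 3 reads at 24 h.

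On the first day under BPS, BC100530 rose and Dsg2 fell at both doses, as in control. Every member called higher on this day at either BPS dose was below the filter level in some library at 3 h, so it passed the filter through its 24 h level; of the members at the filter level in all 3 h libraries, 3 of 11 at 10 µM and 3 of 8 at 50 µM were called, all lower. At 10 µM, 6 of 19 tested members were called, 3 higher and 3 lower (42.9% of all genes, 21.4% higher and 21.5% lower), and at 50 µM 5 of 17, 2 higher and 3 lower (43.4% of all genes, 21.1% higher and 22.3% lower). BC100530 rose by 2.26 ± 0.39 and 1.85 ± 0.43, and Dsg2 fell by 0.74 (SE 0.17) and by 0.76 (SE 0.15). At 10 µM, Stfa3 rose by 2.35 ± 0.44 and Ly6d by 2.20 ± 0.46, while Klk8 fell by 0.56 (SE 0.19) and Dsc3 by 0.48 (SE 0.18). At 50 µM, Dsg3 rose by 1.51 ± 0.42, Serpinb6a fell by 0.24 (SE 0.07) and Dsc2 by 0.54 (SE 0.20). Of these calls, 3 lay near the threshold and were lost when any of several libraries was left out. Klk8 was not called without 10 µM replicate 2 or 5 at 3 h or 3 or 5 at 24 h (-0.50 to -0.47, adjusted p 0.0534 to 0.0691), and Dsc3 without 10 µM replicate 2, 3 or 5 at 3 h or 2, 3 or 4 at 24 h (-0.49 to -0.38, adjusted p 0.059 to 0.101). Dsc2 was not called without 50 µM replicate 2, 3 or 5 at 3 h or 3, 4 or 5 at 24 h (-0.54 to -0.45, adjusted p 0.0547 to 0.0915).

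Genes of the same process outside these families rose on the second day as well. From a list of 55 cornification genes, 29 of 43 tested rose from 24 to 48 h in control and none fell, with 33 of 43 rising at 10 µM and 32 of 43 at 50 µM. The list's median log2 change was 0.89 in control, against -0.01 over all genes tested. Tgm3 and Tgm1, transglutaminases that cross-link the envelope, rose by 2.42 ± 0.26 and 0.91 ± 0.27 in control, and the scaffold proteins periplakin (Ppl) and envoplakin (Evpl) by 1.07 ± 0.17 and 0.52 ± 0.14. Lipid barrier genes had 8 of 13 called, desmosome partners 5 of 6, and regulators such as Klf4 and Zfp750 7 of 12. Keratins 1 and 10, which mark the suprabasal layers, rose by 3.31 ± 0.29 and 3.28 ± 0.21. Of the basal list 1 of 7 was called higher in control and 5 of 7 at each BPS dose, with 1 of 7 called lower at 50 µM. The first day in control went otherwise. Of the 12 regulators 7 were called lower and 1 higher, and of 39 cornification genes tested 15 lower and 7 higher. From 3 to 48 h, 5 regulators were called higher and 5 lower. Mean levels at 3, 24 and 48 h in control were 7.85, 3.80 and 7.88 CPM for Zfp750 and 53.7, 79.6 and 117 CPM for Klf4.

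Effects of BPS at a fixed time were small beside the change with time. At 3 h, 0 of 17 tested members were called at 10 µM (0% of all genes) and 0 of 17 at 50 µM (0.0538% of all genes). Unadjusted p fell below 0.05 for 0 and 2 members, and DESeq2 called none. Over all genes tested, it fell below 0.05 for 329 of 16654 at 10 µM and 1334 of 16722 at 50 µM. The smallest p at 10 µM belonged to Dsg3 (-0.68 ± 0.39), Dsg2 (-0.20 ± 0.14), Serpinb6a (-0.08 ± 0.06), Serpinb6b (-0.51 ± 0.45) and Serpinb8 (-0.29 ± 0.29). At 50 µM they belonged to Serpinb8 (-0.91 ± 0.32), Dsg3 (-1.08 ± 0.45), Klk10 (-0.80 ± 0.41), Dsg2 (-0.24 ± 0.14) and Serpinb1a (0.37 ± 0.23). At 24 h, 0 of 20 were called at 10 µM (0% of all genes), and none by DESeq2. Unadjusted p fell below 0.05 for 1 member and for 494 of all 16529 genes tested. Ly6d (-0.84 ± 0.32), Klk8 (-0.33 ± 0.20), Sprr1a (-0.67 ± 0.48), Klk10 (0.39 ± 0.35) and Stfa3 (-0.38 ± 0.37) had the smallest p.

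At 24 h and 50 µM, 1 of 19 tested members was called, Stfa3, which was lower; 0.375% of all genes were called and 0.127% called lower. Stfa3 was at the filter level in every control library but not in every 50 µM library, which favours a lower value at 50 µM, and of the 12 members at that level in both groups none was called. Stfa3 measured 1.25, 1.17, 0.467, 0.170 and 0.874 CPM at 50 µM, against 3.53, 3.42, 2.13, 2.57 and 2.79 CPM in control. All 5 treated libraries lay below all 5 controls. The difference was -1.85 ± 0.34 on the log2 scale (adjusted p = 0.0258). The call was lost without control replicate 1, 2 or 4 or 50 µM replicate 3 or 4, with log2 differences of -1.88 to -1.61 and adjusted p of 0.0657 to 0.0979. At 10 µM and 24 h Stfa3 measured 2.73, 1.17, 1.18, 1.18 and 4.72 CPM, values below, within and above the control range. Next by p at 50 µM and not called were Ly6d (-1.22 ± 0.37), Serpinb6a (-0.19 ± 0.07), Dsc2 (-0.51 ± 0.21) and BC100530 (-0.92 ± 0.36). Without the filter on low counts Ly6d was called as well (-1.22, adjusted p = 0.0196).

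At 48 h the doses pointed in opposite directions, and neither was called against control. At 10 µM, 0 of 38 tested members were called and 0% of all genes, and DESeq2 called 0 members. Unadjusted p was below 0.05 for 13 members and for 438 of all 16725 genes tested. The members' median log2 difference was 0.58, with 33 positive. Klk7 (1.11 ± 0.25), Serpinb8 (0.79 ± 0.20), Csta1 (0.90 ± 0.26), Dsc1 (1.04 ± 0.33) and Dsc2 (0.59 ± 0.20) had the smallest p, with an adjusted p of 0.9996. At 50 µM, 0 of 34 were called, with 1% of all genes called, and DESeq2 called 0 members. Unadjusted p was below 0.05 for 7 members and for 2157 of all 16663 genes tested. The members' median was -0.33, with 27 negative. Serpinb6a (-0.29 ± 0.09), BC100530 (-0.75 ± 0.22), Stfa3 (-0.997 ± 0.31), Casp14 (-0.78 ± 0.29) and Csta1 (-0.89 ± 0.36) came first by p, with adjusted p of 0.147 to 0.307. In a fit of all 45 libraries Serpinb6a and Stfa3 were called (adjusted p = 0.00778 and 0.0434), and Stfa3 also without 50 µM replicate 5 (-1.31, adjusted p = 0.0226). These 2 comparisons share their control libraries. Of members at the filter level in both groups compared, 28 of 30 were positive at 10 µM and 19 of 26 negative at 50 µM.

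**Figure D4:**
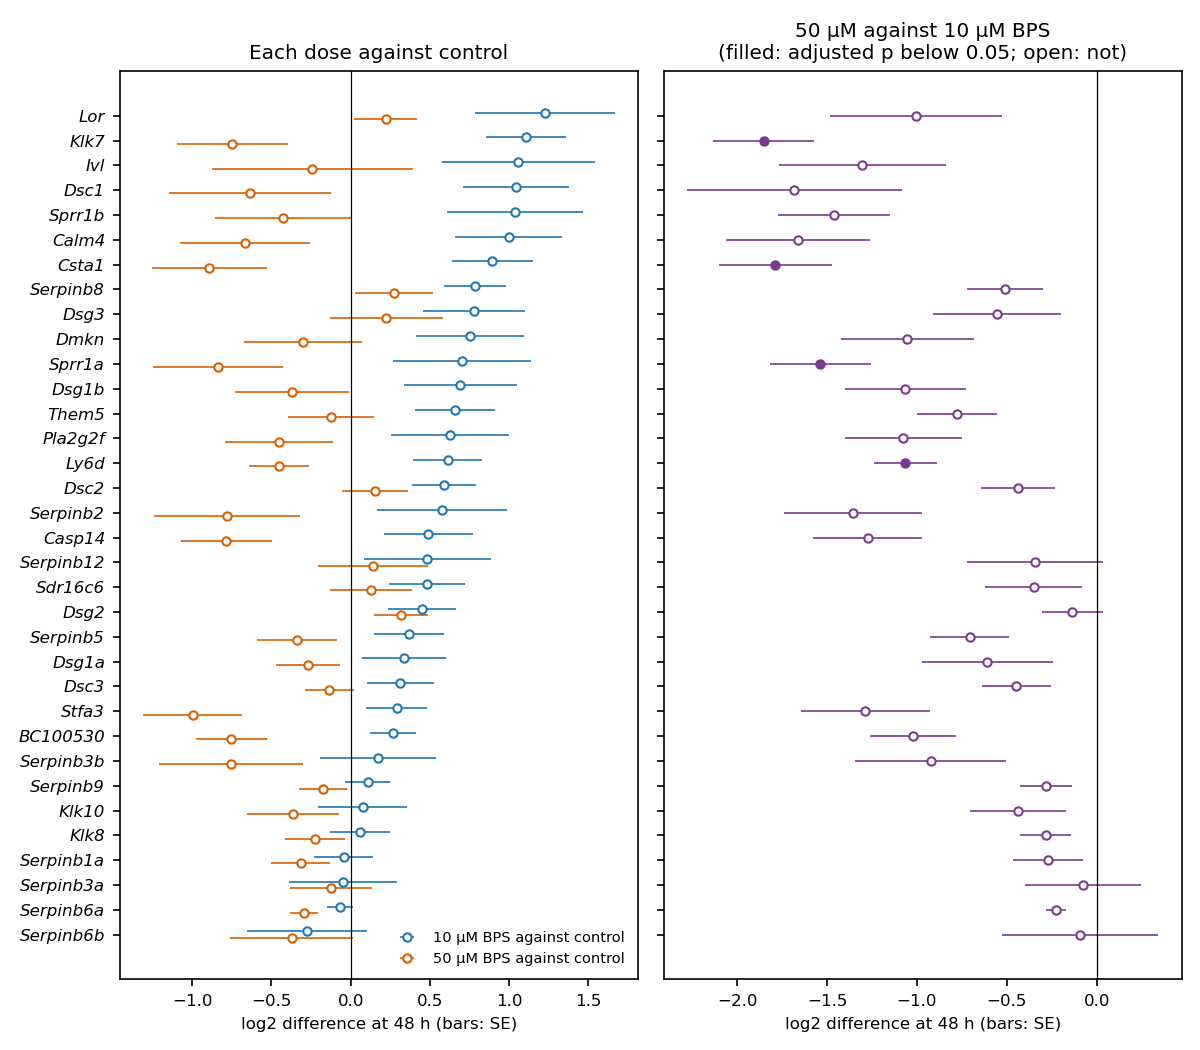
Log2 difference at 48 h with its SE for the 34 members tested in all 3 comparisons, for each BPS dose against control on the left and for 50 µM against 10 µM on the right, where filled points have adjusted p below 0.05. On the left no point is called and the 10 µM points lie mostly right of 0; on the right all 34 points lie left of 0, with Klk7, Csta1, Sprr1a and Ly6d filled.

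Setting 50 µM against 10 µM at 48 h, a comparison added after the values were seen, 5 of 36 tested members were called, all lower at 50 µM, against 0.921% of all genes called and 0.485% called lower. All 36 differences were negative, with a median of -0.93. In 9 members every 50 µM library lay below every 10 µM library, a pattern found in 1.48% of all genes tested. Of the 36, 25 were at the filter level in both groups; 9 met it at 10 µM alone, Klk7, Csta1 and Spink5 among them, which favours a lower value at 50 µM. Among the 25 there were 2 called, Ly6d and Sprr1a. Klk7 measured 2.87, 2.67, 2.32, 3.97 and 2.93 CPM at 10 µM and 0.740, 1.24, 0.323, 0.614 and 1.12 CPM at 50 µM. The 2 dose groups were apart, and their difference was -1.85 ± 0.28 (adjusted p = 0.0021). The controls, at 0.681 to 1.87 CPM, lay below the 10 µM group and overlapped the 50 µM group. Csta1 measured 2.07, 3.34, 1.74, 2.61 and 2.87 CPM against 0.617, 0.618, 0.194, 0.992 and 1.18 CPM. These groups were also apart, differing by -1.79 ± 0.31 (adjusted p = 0.00447).

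Ly6d measured 9.99, 13.3, 9.90, 13.1 and 6.37 CPM at 10 µM and 5.24, 6.04, 4.14, 4.25 and 5.62 CPM at 50 µM. The lowest 10 µM library, replicate 5, was just above the highest at 50 µM, and the difference was -1.07 ± 0.17 (adjusted p = 0.00389). Spink5 measured 2.30, 3.34, 0.579, 2.16 and 2.12 CPM against 0.987, 0.475, 0.194, 0.378 and 0.532 CPM. Replicate 3 of the 10 µM group was low and made the groups overlap; the difference was -2.04 ± 0.41 (adjusted p = 0.0168). Sprr1a measured 9.18, 13.8, 4.40, 8.49 and 9.07 CPM against 4.44, 2.76, 1.81, 3.16 and 3.37 CPM. Here replicate 3 at 10 µM and replicate 1 at 50 µM met at about the same level, and the difference was -1.54 ± 0.28 (adjusted p = 0.0266). Spink5 lost its call without 10 µM replicate 1 or 2 or 50 µM replicate 2, 3 or 4 (-2.01 to -1.81, adjusted p 0.055 to 0.0776). Sprr1a lost its call without 10 µM replicate 1, 4 or 5 or 50 µM replicate 2, 4 or 5 (-1.57 to -1.49, adjusted p 0.0587 to 0.0849), and in a fit of all 45 libraries (adjusted p = 0.0982). The number called was 3 without 10 µM replicate 1 or without 50 µM replicate 2 or 4, 11 by DESeq2 and 17 without the filter on low counts.

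Replicate 2 of the 10 µM group held the highest value of any library for Lor, Sprr1b, Dsc3, Serpinb5, Stfa3 and Dmkn. Without it the median differences were 0.46 for 10 µM against control and -0.76 for 50 µM against 10 µM, and 4 members were called in the latter. Lor was uneven at 10 µM, with replicates 1 and 2 at 27.8 and 30.3 CPM and the others at 10.1, 11.1 and 6.26 CPM, against 5.91 to 10.4 CPM in control and 6.59 to 12.2 CPM at 50 µM. Stfa3 at 48 h was 36.2, 56.8, 29.0, 32.05 and 29.6 CPM at 10 µM and 6.91, 16.0, 10.5, 14.8 and 27.0 CPM at 50 µM, where 4 of 5 libraries lay below every control. Exceptions to the general direction were few. The 5 members with a negative difference at 10 µM were all serpins, Serpinb6b (-0.28), Serpinb3c (-0.14), Serpinb6a (-0.07), Serpinb3a (-0.05) and Serpinb1a (-0.04). At 50 µM, 7 members had a positive difference, of which Dsg2 (0.32 ± 0.17) was the highest, beside 0.45 ± 0.22 for Dsg2 at 10 µM; none of these was called.

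Without Serpinb6a, which has the most reads, the 89 members summed to 160 to 262 CPM in the 48 h controls, 218 to 429 CPM at 10 µM and 104 to 192 CPM at 50 µM. At 3 h in control the sum was 39.0 to 55.8 CPM. Basal keratins differed less between doses. Per 100 CPM of Krt5 and Krt14 together, the members had 13.9 to 20.9 CPM at 3 h, 22.3 to 41.7 CPM at 24 h and 53.2 to 94.7 CPM at 48 h in control, and at 48 h 68.2 to 133 CPM at 10 µM and 34.4 to 79.5 CPM at 50 µM. Per 100 CPM of Krt1 and Krt10, the 48 h values were 40.4 to 70.7 in control, 54.6 to 80.6 at 10 µM and 39.2 to 49.4 at 50 µM, so the BPS groups were apart and both overlapped control. In the 50 µM against 10 µM comparison 0 of 7 basal, 0 of 5 suprabasal and 0 of 44 other cornification genes were called. Of 7 periderm and stress keratins, 2 were called lower. All 5 suprabasal log2 differences were negative, from -0.40 (Krt10) to -0.98 (Krt77). So was every tested envelope cross-linking or scaffold gene, from -0.15 (Ppl) to -1.24 (Cnfn). Members at the filter level in both groups had a median of -0.61. Positive among the basal and cornification genes were Trp63 (0.12), Krt15 (0.12), Grhl2 (0.19), Ugcg (0.06), Tfap2a (0.05) and Gata3 (0.005). Macrophage genes moved as well, with 3 of 8 called lower at 50 µM than at 10 µM and sums of 134 to 208 CPM against 203 to 227 CPM. Their part in the members' differences was not tested. The strain labels other than CD1 fall on exactly the 50 µM libraries of 48 h, so whatever those labels stand for cannot be told apart from that dose.

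**Figure D5:**
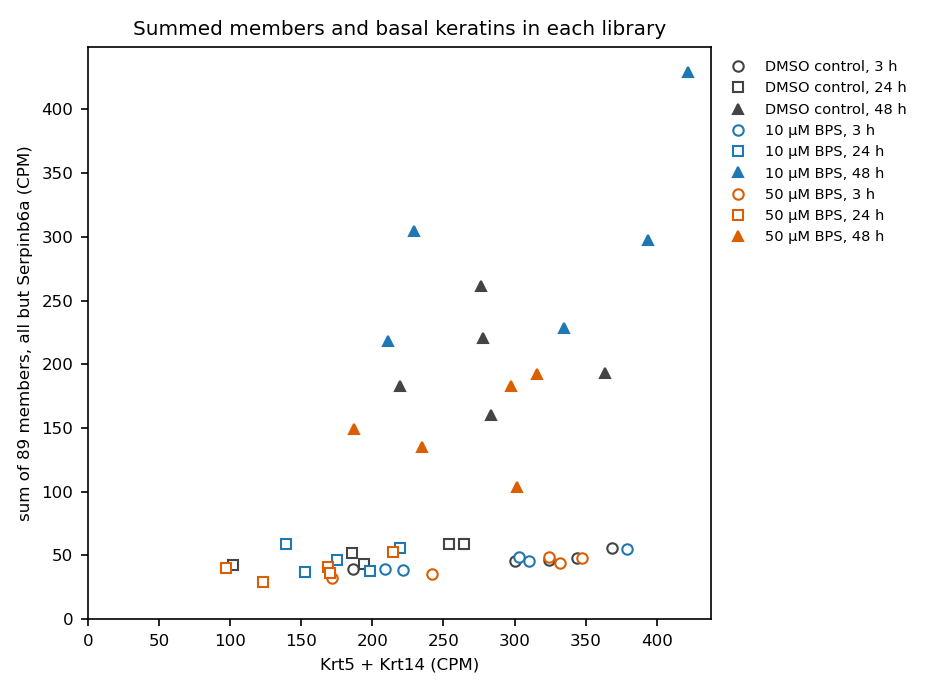
Summed CPM of 89 members, all but Serpinb6a, against Krt5 plus Krt14 in CPM, with 1 point for each of the 45 libraries, colours for dose and shapes for time. Libraries of 3 and 24 h lie below 60 CPM at any keratin level, and at 48 h the 10 µM libraries reach 429 CPM while those at 50 µM stay below 193 CPM.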

How the data were processed

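RNA-seq was made from 45 limb culture libraries, 5 a group. Reads were processed with CASAVA 1.8, STAR 2.5, HTSeq 0.6.1 and DESeq2 version 2 on mm10, per the submitters' processing notes. The deposited tables hold raw counts per gene, and the authors' log2 fold changes, p-values and adjusted p-values for 9 comparisons; per the file headers they also give gene length and biotype. Control counts that appear in several tables (1319925 values) were identical.

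Counts were joined by gene identifier and tested with edgeR 4.0.16 in R 4.3.3 (TMM scaling, filterByExpr, robust quasi-likelihood fits on the 10 libraries of a comparison or the 20 of an interaction), checked on simulated data. By the authors' deposited tables, 27 members passed an adjusted p of 0.05 from 24 to 48 h in control, and 1, lower, at 50 µM against control at 24 h. Promoters came from RefSeq.

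Members, lists and tests were chosen with earlier results of these data known. Named were up to 25 called members per comparison by smallest p, the 5 smallest p where fewer were called in dose comparisons, and each family's leading member at 48 h in control and any member against most of its family. The comparison of 50 µM with 10 µM was added after values were seen. Alternatives were DESeq2 1.42.0, RLE scaling, no filter, a fit of all 45 libraries, replicate blocks and leaving out libraries.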

Additional observations from a re-analysis of the deposited data

Results flagged for a closer look

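Among 103 groups of 5 libraries, taken over the leading member of each family with enough reads, the members called between doses at 48 h and the sum of members, 8 held a library far from the other 4, with a gap to the nearest library of over 0.71 of the group's range. Chance gives about 1 in 20 such groups. In control at 3 h, Klk8 was low in replicate 1 at 2.31 CPM, Serpinb5 was high in replicate 1 at 0.590 CPM and Stfa3 was high in replicate 2 at 1.13 CPM. In control at 24 h, replicate 3 was high for Csta1 at 0.747 CPM and for Sprr1a at 2.67 CPM. In the 10 µM group, Lor was high in replicate 2 at 3 h at 8.22 CPM, and Stfa3 was high in replicate 2 at 48 h at 56.8 CPM. In the 50 µM group, Dsc3 was high in replicate 2 at 48 h at 13.0 CPM.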

How the results depend on the processing

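RLE scaling and DESeq2 took away none of the calls of named members. The fit of all 45 libraries took away 4, the run without the filter 2 and the replicate block 2. No change of a single named member changed sign under any alternative run. Medians over the tested members of 0.19 or less in size did change sign in 15 of 260 recomputations, 14 of them without 1 library, none of them a median printed for 48 h. Counts of called members moved by over 1.5 times in these cases. Without the filter on low counts, 10 members in place of 6 were called from 3 to 24 h in control, 12 in place of 6 at 10 µM, 2 in place of 1 for 50 µM against control at 24 h, and 17 in place of 5 for 50 µM against 10 µM at 48 h. With all 45 libraries in 1 fit, 8 in place of 5 were called from 3 to 24 h at 50 µM and 2 in place of 0 for 50 µM against control at 48 h. DESeq2 called 11 for 50 µM against 10 µM at 48 h. Leaving out 1 library gave 3 to 7 in that comparison, 0 to 1 for 50 µM against control at 24 h and 0 to 1 at 48 h. The cause was not tested. Of 1190 refits of called values without 1 library, 51 lost the call. The labels do not say that a replicate number marks a shared litter or batch, and in no comparison did all 5 same-numbered pairs have deviations correlated above 0.1, so the block was not the main fit. Between 0 and 4 of 5 libraries correlated best with their own number, with 4 of 5 for 10 µM against control at 24 h and for 50 µM against control at 3 and 24 h. At 24 h, replicate 5 also held the highest member sum per 100 CPM of Krt5 and Krt14 at every dose, 41.7 in control, 42.5 at 10 µM and 41.0 at 50 µM, against 19.2 to 28.1 in the other libraries, a hint from the data that numbers may be shared. With the replicate block, 3 members were called for 50 µM against control at 24 h (Stfa3, Ly6d with adjusted p = 0.0135 and Serpinb6a with adjusted p = 0.0482) and 13 for 50 µM against 10 µM at 48 h, and Sprr1a and Sprr1b from 24 to 48 h in control had adjusted p of 0.0663 and 0.0752. Depth limits the Lce genes, Flg and most Klk genes, which had too few reads to compare.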
